A study of Mus musculus with 150 samples.

Results

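The 5 genes followed here encode proteins of the slow muscle fibre. They are Myh7, Tnnc1, Tnni1, Tnnt1 and Atp2a2, and 7 of the 12422 non-control probe sets of the array were annotated to them. Total RNA from adult wild-type inbred mice was labelled with biotin and hybridised to 1-colour Affymetrix arrays, and the values are intensities in array units. The arrays used covered 10 body tissues, each with 1 array of the strains 129, AJ, B6, C3H and DBA, and 24 neural tissues with 43 arrays of 129, 47 of B6 and 8 of DBA. The body tissues were brown fat, heart and muscle, set beside adrenal, kidney, liver, spleen, testes, thymus and white fat. The labels gave no treatment, sex or exact age, and did not say which muscle was dissected. A DBA perirhinal cortex array and a 129 hippocampus array held identical values and were both left out. In their titles 46 of the 98 neural arrays and 22 of the 50 body arrays share a number with another array of the same strain and class, without the labels saying what it stands for, so arrays of different tissues may share an animal, and p-values treat them as independent. Some neural titles list several numbers, so those arrays may hold pooled animals. The 129 and B6 hearts and brown fats and the B6 muscle carry titles in another numbering style than the AJ, C3H and DBA arrays of these tissues, so strain and numbering cannot be told apart there.

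Skeletal muscle is a mixture of fast fibres and slow fibres, which differ in the isoforms of the contractile and calcium-handling proteins that they make. Slow fibres use the same myosin heavy chain as the ventricle of large mammals, slow troponin subunits and the calcium pump of heart muscle, and they are suited to sustained, oxidative work. In the adult mouse heart the main ventricular myosin is the product of Myh6, cardiac troponin I and troponin T come from Tnni3 and Tnnt2, and troponin C is shared with slow fibres. Brown fat burns fuel to make heat and in mice lies mainly between the shoulder blades.

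Myh7 encodes the slow myosin heavy chain, the motor protein of the thick filament. Tnnc1 encodes the calcium-binding troponin subunit of slow muscle and heart, Tnni1 the slow inhibitory subunit, and Tnnt1 the slow subunit that binds tropomyosin. Atp2a2 encodes a pump that returns calcium to the sarcoplasmic or endoplasmic reticulum, and one of its products is made in most cells. In the RefSeq annotation of GRCm38.p6 the gene bodies are chr14:54970684-54994626 for Myh7, chr14:31208312-31211729 for Tnnc1, chr1:135783033-135810989 for Tnni1, chr7:4504569-4515975 for Tnnt1 and chr5:122453513-122502225 for Atp2a2. Myh7 was read by 98616_f_at and 161547_f_at, Tnnt1 by 161361_s_at and 101383_at, and Tnnc1, Tnni1 and Atp2a2 by 101063_at, 98561_at and 99570_s_at. The ending _f_at marks probes that match a sequence family and _s_at marks probes shared among transcripts, so the Myh7 signal may include other myosin heavy chains.

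For Myh7, Tnnc1, Tnni1, Atp2a2 and the brighter Tnnt1 probe set, AJ was the highest and C3H the lowest muscle. The bases just before the starts of Myh7, Tnnc1, Tnni1 and Tnnt1 are shown from a single reference assembly. They hold no difference between strains, and a link to this strain order was not tested. The motifs are ones that muscle and other promoters are known to carry. The RefSeq table of GRCm38.p6 held windows for 4 of the 5 genes, and the 250 bases before a start are printed 5′ to 3′ on the gene's own strand. The windows are chr14:54994627-54994876 on the minus strand for Myh7, chr14:31208062-31208311 on the plus strand for Tnnc1, chr1:135799171-135799420 on the plus strand for Tnni1 and chr7:4515976-4516225 on the minus strand for Tnnt1. The table held 2 windows each for Myh7 and Tnni1. For Myh7 the upstream window was taken. For Tnni1 the first listed was taken, and it lies inside the gene body given above, not before it. Capitals mark matches on either strand to the MCAT motif, CATTCC, or to the TATA box, TATAAA.
Myh7: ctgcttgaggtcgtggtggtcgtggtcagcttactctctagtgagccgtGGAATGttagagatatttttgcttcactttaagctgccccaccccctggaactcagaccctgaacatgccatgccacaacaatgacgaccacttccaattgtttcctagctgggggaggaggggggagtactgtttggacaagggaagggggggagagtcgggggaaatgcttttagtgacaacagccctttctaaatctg
Tnnc1: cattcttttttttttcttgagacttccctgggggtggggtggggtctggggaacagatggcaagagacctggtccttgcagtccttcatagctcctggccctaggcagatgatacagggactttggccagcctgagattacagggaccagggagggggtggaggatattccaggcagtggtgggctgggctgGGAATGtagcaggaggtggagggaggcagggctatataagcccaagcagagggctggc
Tnni1: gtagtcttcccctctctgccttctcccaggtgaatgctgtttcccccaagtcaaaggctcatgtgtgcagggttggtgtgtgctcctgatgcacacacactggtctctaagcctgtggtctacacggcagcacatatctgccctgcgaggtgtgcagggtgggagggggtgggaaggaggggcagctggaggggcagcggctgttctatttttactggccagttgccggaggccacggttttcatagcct
Tnnt1: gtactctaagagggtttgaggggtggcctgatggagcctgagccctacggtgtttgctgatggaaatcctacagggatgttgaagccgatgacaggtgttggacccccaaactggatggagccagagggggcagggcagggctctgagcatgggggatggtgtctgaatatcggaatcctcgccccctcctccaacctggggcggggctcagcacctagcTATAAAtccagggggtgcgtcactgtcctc

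An MCAT match lay in the Myh7 window, beginning 201 bases before the start, and in the Tnnc1 window, beginning 58 bases before it. A TATAAA match lay in the Tnnt1 window, beginning 30 bases before the start. Of the 32851 windows of this length in the table, 12.6% held an MCAT match and 12.4% a TATAAA match. The E-box, CANNTG, which 66.2% of windows held, had 1 match in Myh7, 2 in Tnnc1, 4 in Tnni1 and 1 in Tnnt1, and none of these overlapped a capital letter. The MEF2 motif, in 2.92% of windows, had no match in any of the 4. These are matches of letters only.

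Intensities under 10.44, the 20th percentile over the arrays, were set to that floor, and differences are on the log2 scale with their SE. To be tested, a probe set had to have a mean above the overall log2 median in 1 or more tissues of the fit. In the 50 body arrays 6 of the 7 probe sets passed, as did 8921 in all. Myh7 161547_f_at did not pass. It ran from -19.3 to 33.6 over the 148 arrays, and 107 of its values lay at or below the floor. A tissue difference was called at a limma adjusted p of 0.05, adjusted over all probe sets tested, and a log2 difference of 1. The 50 body arrays shared 1 estimate of the spread per probe set, so an SE is not that of the tissues compared alone. The 75th percentile of intensity ran from 167 to 185 over all arrays, and the 3′ to 5′ Gapdh ratio, a sign of RNA quality, from 0.748 to 1.41.

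In brown fat, Myh7 98616_f_at read 77.0 in 129, 379 in AJ, 265 in B6, 1439.8 in C3H and -4.54 in DBA. In heart it read 4390.0 in 129, 3986 in AJ, 3489.6 in B6, 3700.2 in C3H and 3231 in DBA. In muscle it read 1366 in 129, 3207 in AJ, 423 in B6, 67.1 in C3H and 324 in DBA. The hearts were all above the muscles and the brown fats, and the strains stood in a different order in brown fat than in muscle: C3H was highest in brown fat and lowest in muscle. Its level was far less even in brown fat and muscle than in heart.

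The troponin C gene Tnnc1 read 41.7 in 129, 144 in AJ, 162 in B6, 710.0 in C3H and 45.3 in DBA brown fat. In heart it read 8883 in 129, 9488 in AJ, 8388 in B6, 8606 in C3H and 9021 in DBA. In muscle it read 754 in 129, 1599 in AJ, 203 in B6, 41.9 in C3H and 132 in DBA. The heart values lay close together and above every muscle and brown fat value, and C3H was again the highest brown fat and the lowest muscle.

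The troponin I gene Tnni1 read 135 in 129, 229 in AJ, 336 in B6, 1133 in C3H and 112 in DBA brown fat. In heart it read 24.6 in 129, 91.5 in AJ, 38.6 in B6, 48.3 in C3H and 30.3 in DBA. In muscle it read 588 in 129, 1464 in AJ, 211 in B6, 68.2 in C3H and 133 in DBA. It was the troponin gene with low values in heart: every brown fat value lay above every heart value, while the muscle of C3H lay within the range of the hearts. For comparison, the 35 arrays of the 7 other body tissues ran from 8.94 to 83.4.

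The troponin T gene Tnnt1, by 161361_s_at, read 148 in 129, 617 in AJ, 340.1 in B6, 1579 in C3H and 33.8 in DBA brown fat. In heart it read 265 in 129, 316 in AJ, 619 in B6, 315 in C3H and 224 in DBA. In muscle it read 1194 in 129, 4189 in AJ, 469.5 in B6, 91.7 in C3H and 374 in DBA. All 3 tissues overlapped. The second Tnnt1 probe set, 101383_at, had a narrower range, 25.0 to 169.7 in brown fat, 42.9 to 112 in heart and 146 to 413 in muscle, and its muscle values apart from AJ at 413 lay between 146 and 173. The pair of probe sets therefore disagreed on the C3H muscle, where 161361_s_at was lowest and 101383_at was not.

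The calcium pump gene Atp2a2 read 144 in 129, 302 in AJ, 225 in B6, 518 in C3H and 191 in DBA brown fat. In heart it read 9161 in 129, 7415 in AJ, 7236 in B6, 7665 in C3H and 7536 in DBA. In muscle it read 398 in 129, 1074 in AJ, 169 in B6, 70.0 in C3H and 136 in DBA. Every heart lay above every muscle and brown fat, and the muscle and brown fat values overlapped.

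**Figure D1:**
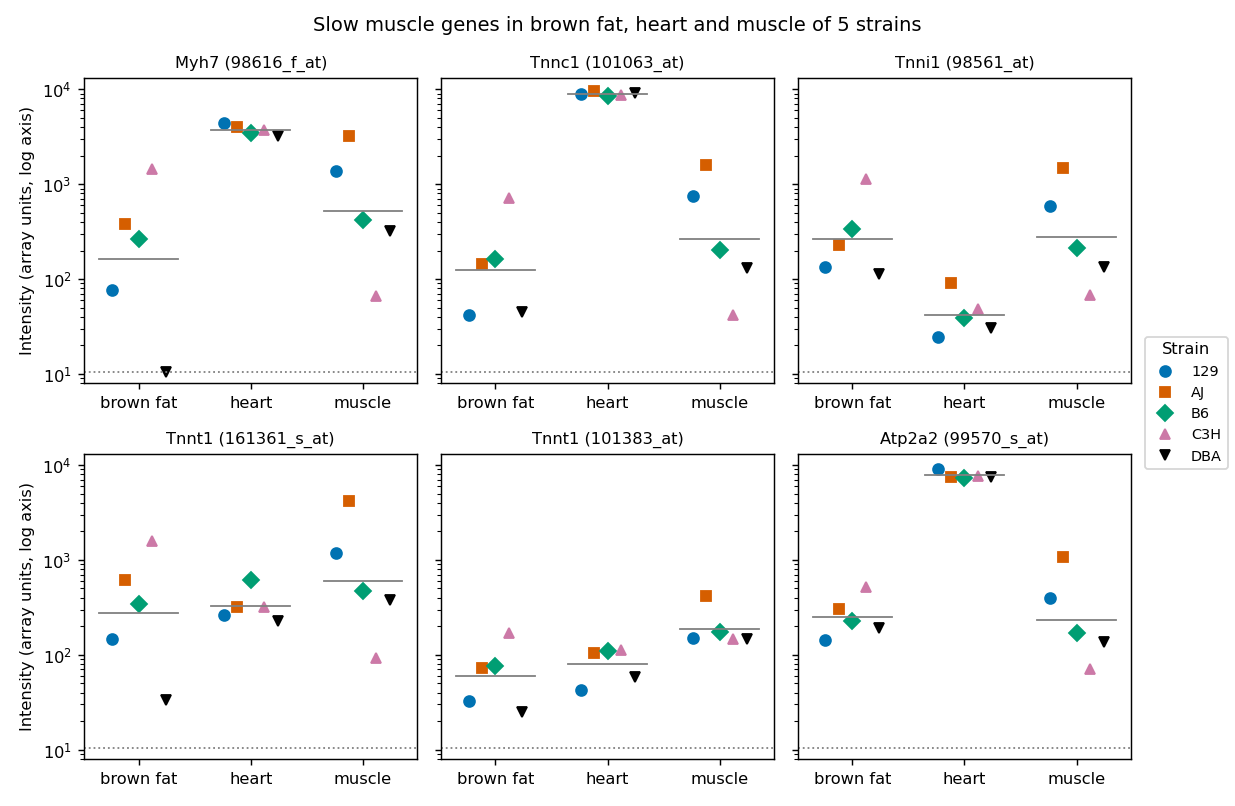
Intensity (array units, log axis) of the 6 tested probe sets in brown fat, heart and muscle; each symbol is the array of a strain, the grey bar is the geometric mean of 5 arrays and the dotted line is the floor at 10.44, where values below it are drawn. Heart values of Myh7, Tnnc1 and Atp2a2 lie close together, while in muscle AJ is highest in each panel and C3H is lowest in each panel but that of 101383_at.

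In the 7 other body tissues 27 of 35 Myh7 values and 22 of 35 Tnnc1 values lay at or below the floor, so the sizes given for these genes depend on it. Against the mean of those tissues, brown fat was higher for all 6 tested probe sets, heart for 5 of 6 and muscle for all 6. The tested Myh7 probe set, Tnnc1 and Tnnt1 101383_at passed the filter only through brown fat, heart and muscle. Their higher calls against the 7 other body tissues were thus in part set by the filter. The other Myh7 probe set failed the filter and was not tested. Over all probe sets tested, 13.5% were called higher in brown fat, 13.5% in heart and 15% in muscle. In brown fat the difference was 3.68 ± 0.54 for Myh7, 3.24 ± 0.45 for Tnnc1, 2.56 ± 0.37 for Tnni1, 3.03 ± 0.50 and 1.02 ± 0.27 for Tnnt1, and 1.66 ± 0.32 for Atp2a2 (limma adjusted p between 4.34e-08 and 0.000968). The call of Tnnt1 101383_at, at 1.02, was lost in 7 of 50 alternatives. It fell to 0.64 without the C3H brown fat, and to 0.96 and 0.997 without the AJ and the B6 brown fat. In heart Tnnc1 differed by 9.38 ± 0.45 (8.06 and 10.15 with floors at the 40th and 10th percentile), Myh7 by 8.19 ± 0.54 (6.80 and 9.19), Atp2a2 by 6.62 ± 0.32 and Tnnt1 by 3.26 ± 0.50 and 1.44 ± 0.27 (limma adjusted p at most 1.01e-05). Tnni1 had a heart difference of -0.11 ± 0.37 (limma adjusted p = 0.819). In muscle Myh7 differed by 5.36 ± 0.54, Tnnc1 by 4.33 ± 0.45, Tnnt1 by 4.15 ± 0.50 and 2.68 ± 0.27, Tnni1 by 2.63 ± 0.37 and Atp2a2 by 1.56 ± 0.32 (limma adjusted p at most 5.08e-05). In bulk tissue, fewer cells of a type and less RNA per cell cannot be told apart.

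The 3 tissues were then compared with each other. Brown fat against heart was lower for Tnnc1 by -6.14 ± 0.59, for Atp2a2 by -4.96 ± 0.43 and for Myh7 by -4.52 ± 0.71, and higher for Tnni1 by 2.67 ± 0.49 (limma adjusted p at most 1.51e-05). Of all probe sets, 9.99% were called lower and 9.48% higher in this comparison. Heart against muscle was higher for Atp2a2 by 5.06 ± 0.43, Tnnc1 by 5.06 ± 0.59 and Myh7 by 2.83 ± 0.71, beside 8% of all probe sets, and lower for Tnni1 by -2.73 ± 0.49 and for Tnnt1 101383_at by -1.24 ± 0.35, beside 8.43% (limma adjusted p at most 0.00426). Without the AJ muscle the difference of 101383_at was -0.93. The other Tnnt1 probe set, 161361_s_at, had -0.89 ± 0.67 (limma adjusted p = 0.308) and reached -1.70 (limma adjusted p = 0.028) without the C3H muscle.

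Brown fat against muscle was lower for Tnnt1 101383_at by -1.66 ± 0.35 (limma adjusted p = 0.000112) and for Myh7 by -1.69 ± 0.71 (limma adjusted p = 0.0466), where 12.3% of all probe sets were called lower. The Myh7 call was lost in 12 of 21 alternatives, and without the DBA brown fat the difference was -0.74 (limma adjusted p = 0.366). Tnnc1 at -1.08 ± 0.59, Tnnt1 161361_s_at at -1.12 ± 0.67, Tnni1 at -0.06 ± 0.49 and Atp2a2 at 0.10 ± 0.43 did not pass (limma adjusted p between 0.132 and 0.939). Without the C3H muscle, Tnnc1 reached -1.88 and Tnnt1 161361_s_at -1.93, and without the C3H brown fat they reached -1.73 and -1.76, each past the threshold. A p that misses the threshold does not show that levels are equal here, since the strains ran over a wide range in both tissues. For Myh7 the log2 SD was 2.68 in brown fat and 2.13 in muscle, against 0.17 in heart. The SEs above rest on a spread shared by all body arrays, so that of Myh7 understates the spread in both tissues.

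Brown fat against white fat set the fat depots beside each other. In white fat all 5 arrays of Myh7 98616_f_at and Tnnc1 lay below the floor. Brown fat was at least 12.0-fold higher for Tnnc1 (limma adjusted p = 2.71e-06). Myh7 was called higher as well (limma adjusted p = 1.08e-05), but no fold is given because the DBA brown fat also lay below the floor. Tnnt1 was higher by 3.13 ± 0.67 and 1.35 ± 0.35 and Tnni1 by 2.33 ± 0.49 (limma adjusted p at most 0.0014), and 12.6% of all probe sets were called higher. Without the C3H brown fat the 1.35 of Tnnt1 101383_at fell to 0.98, short of the threshold. Atp2a2 read 158 in 129, 98.4 in AJ, 259.5 in B6, 383 in C3H and 394 in DBA white fat, which overlapped brown fat (0.13 ± 0.43, limma adjusted p = 0.831).

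**Figure D2:**
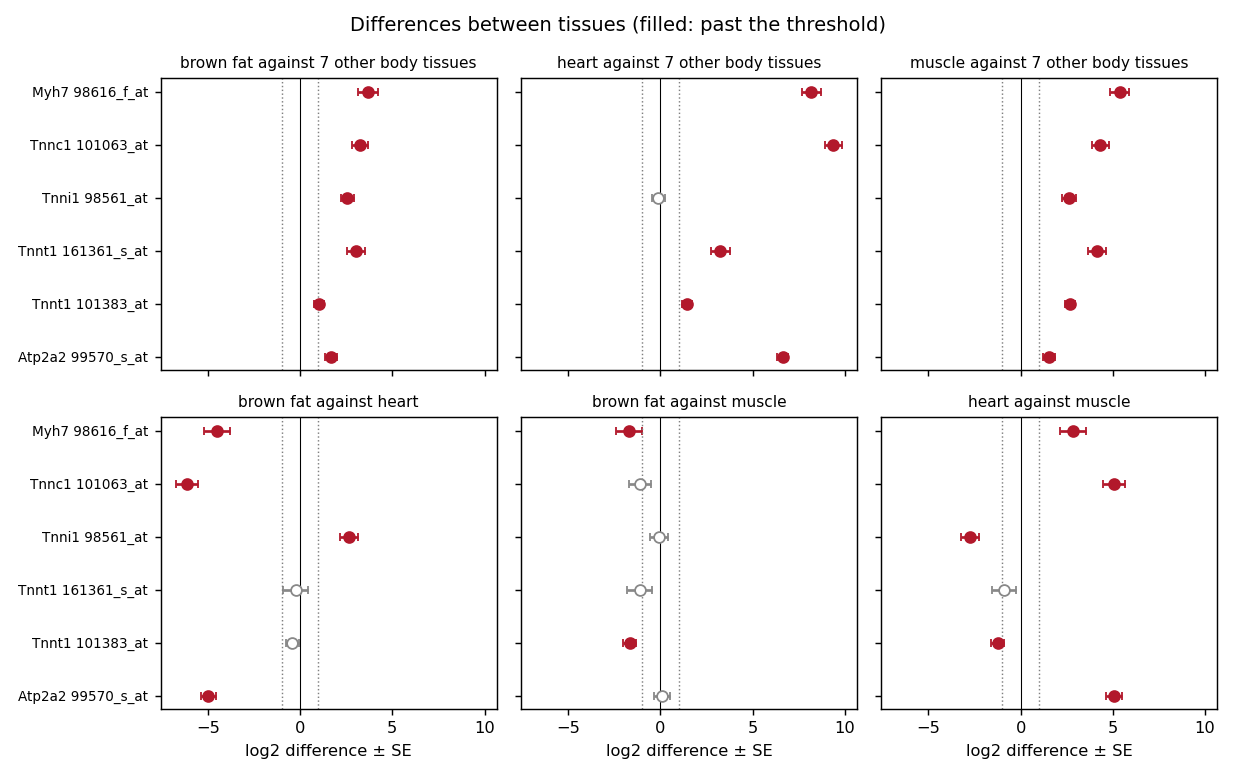
Log2 differences (points) with their SE (bars) for the 6 tested probe sets in 6 comparisons of body tissues; filled points passed the threshold, open points did not, and dotted lines mark a difference of 1 in either direction. Tnni1 sits at -0.11 in heart against the 7 other body tissues, while Tnnc1 sits at 9.38.

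The strains were then set beside each other within each of the 3 tissues. There was 1 array per tissue and strain, so a strain difference within a tissue has no test, and the values describe these 15 arrays. In muscle the highest strain was 47.8-fold above the lowest for Myh7, 38.2-fold for Tnnc1, 21.5-fold for Tnni1, 45.7-fold for Tnnt1 161361_s_at, 15.3-fold for Atp2a2 and 2.83-fold for Tnnt1 101383_at. Past 4-fold were 5 of the 6, beside 8.55% of all probe sets. In brown fat the spread was at least 138-fold for Myh7, whose DBA value lay below the floor, 46.7-fold and 6.79-fold for Tnnt1, 17.0-fold for Tnnc1, 10.1-fold for Tnni1 and 3.61-fold for Atp2a2. Past 4-fold were 5 of the 6 there too, beside 7.81% of all probe sets. In heart none of the 6 passed 4-fold, beside 7.72% of all, and the spread ran between 1.13-fold for Tnnc1 and 3.73-fold for Tnni1. Wide spreads were not confined to these tissues, since Atp2a2 spanned 5.29-fold in thymus and 4.00-fold in white fat.

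The order of the strains was shared by most of the genes. In muscle AJ was highest and C3H lowest for 5 of the 6 probe sets, a pattern that 5.29% of all probe sets had. The same order with a spread past 4-fold held for 5 of the 6 and for 0.695% of all. In brown fat C3H was highest for 6 of the 6, beside 19.1% of all probe sets. In C3H all 6 tested probe sets were higher in brown fat than in muscle, as were 40.9% of all probe sets, for instance Myh7 at 1439.8 against 67.1 and Tnni1 at 1133 against 68.2. These genes were read on the same arrays, so their shared order is a property of those arrays as well as of the genes.

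A limma F test over the 5 strains in the 15 arrays of brown fat, heart and muscle, with tissue as a term, called none of the 6 (adjusted p between 0.297 and 0.837). It fits a strain effect common to these tissues, so a strain high in brown fat and low in muscle, as C3H was, adds to the error. The test therefore cannot decide on strain differences that vary between tissues. Tnnt1 101383_at alone had an unadjusted p under 0.05, at 0.0171, and the test called 0.778% of all probe sets. In the 35 arrays of the 7 other body tissues 3 of the 7 probe sets passed the filter. Tnnt1 161361_s_at was called there, at 4.35% of all probe sets, with DBA highest and AJ lowest and a log2 range of 1.14 (limma adjusted p = 0.00533), whereas AJ was the highest muscle. With a floor at the 40th percentile the call was lost, and the range was 0.55 (limma adjusted p = 0.118).

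Other genes of slow fibres were read beside the 5, from a list of 9 genes of which 6 were on the array, with 7 probe sets. Of these 7, 5 had a spread past 4-fold between the strains' muscles, beside 8.55% of all probe sets. AJ was highest and C3H lowest in 4 of the 7, beside 5.29% of all. Myl2, the regulatory light chain of slow fibres and ventricle, read 1556 in 129, 4649 in AJ, 414 in B6, 42.6 in C3H and 648 in DBA muscle. Myl3, the matching essential light chain, read 982 in 129, 1910.2 in AJ, 214 in B6, 69.1 in C3H and 244 in DBA muscle. Their strain order in muscle followed the 5 genes at both ends. Against the 7 other body tissues, 6 of the 7 probe sets were higher and 1 lower in muscle, with a median of 3.06 beside -0.06 over all probe sets tested, and Myl2 differed by 5.47 ± 0.60 and Myl3 by 4.37 ± 0.47 (limma adjusted p = 1.37e-10 and 6.46e-11). The probe set that was lower was Tpm3 93265_at, while Tpm3 93266_at was higher, and Tpm3, which encodes slow tropomyosin, also makes products in other cells.

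Genes of fast fibres did not follow. Of 17 tested probe sets for fast isoforms, none had a spread past 4-fold between the strains' muscles, beside 8.55% of all probe sets. Their median log2 spread there was 0.45, beside 0.89 over all probe sets tested. In brown fat 16 of the 17 passed 4-fold, beside 7.81% of all, with a median log2 spread of 4.64 beside 0.89. Tnni2, the fast counterpart of Tnni1, read 72.4 in 129, 89.0 in AJ, 147 in B6, 289 in C3H and -0.47 in DBA brown fat, against 5176 in 129, 4170.5 in AJ, 4865 in B6, 4777 in C3H and 5492 in DBA muscle. So C3H was highest and DBA lowest in brown fat for the fast gene as well, but its muscles were nearly level. Brown fat against muscle was lower for 16 of the 17 fast probe sets and higher for 1, Myh4 161545_r_at at 1.04 ± 0.41, with a median of -4.51 beside -0.06 over all. Tnni2 differed by -5.97 ± 0.55, Mylpf by -5.67 ± 0.37, Actn3 by -5.46 ± 0.44 and Pvalb by -5.42 ± 0.64 (limma adjusted p at most 1.56e-09). In the same comparison the median of the 6 slow probe sets was -1.10. The difference between the lists was not tested.

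**Figure D3:**
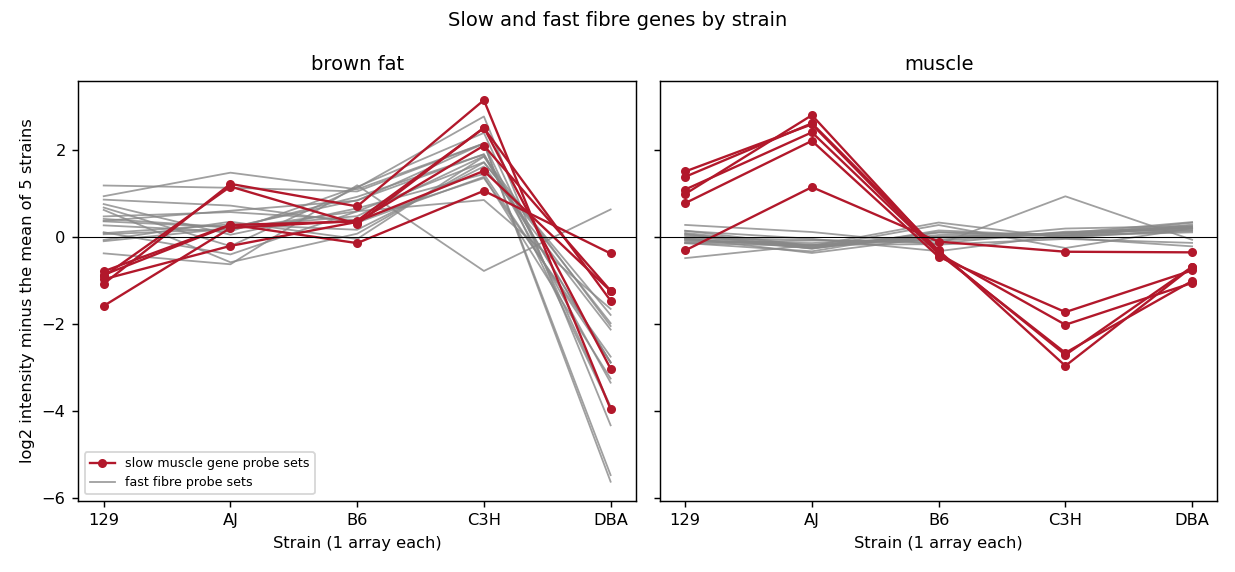
Log2 intensity of each probe set minus its mean over the 5 strains, in brown fat (left) and muscle (right), with 1 array per strain; red lines are the 6 slow muscle gene probe sets and grey lines the 17 fast fibre probe sets. In muscle the grey lines stay near 0 and the red lines are highest in AJ, while in brown fat both kinds are mostly highest in C3H and lowest in DBA.

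Markers of the other cell types were read on the same arrays. The summed level of the 19 fast fibre probe sets was 14847.7 in 129, 15121 in AJ, 16713 in B6, 32619.6 in C3H and 1836 in DBA brown fat, against 138859 to 182530.0 in muscle and 826 to 1229 in white fat. The fast fibre sum in brown fat was thus highest and lowest in the same strains as Tnni1, Tnnt1 and Myh7, and its part in their brown fat values was not tested. The sum of the 9 brown fat probe sets was 27477.5 to 40438.0 in brown fat, 4291 to 10836.5 in heart and 4484 to 9815 in muscle. Against the 7 other body tissues, 6 of the 9 were also higher in heart and 4 in muscle, beside 13.5% and 15% of all probe sets. This sum is therefore not particular to brown fat. In brown fat it was lowest in C3H and highest in DBA, as was the sum of the 6 fat probe sets, at 9006 in C3H and 16215 in DBA, the opposite of Myh7, Tnni1 and Tnnt1. Ucp1 99507_at, the heat-making protein of brown fat, read 189 in 129, 248 in AJ, 43.7 in B6, 982 in C3H and 13.7 in DBA muscle, so it was highest in the muscle with the lowest slow genes. The fat probe sets summed to 2389 in 129, 2838 in AJ, 1583 in B6, 1865 in C3H and 970 in DBA muscle, highest in the 129 and AJ muscles, which also had the highest Myh7, Tnnc1, Tnni1 and Atp2a2. The part of these sums in the brown fat and muscle values was not tested. Of the 10 heart probe sets, Myh6 101071_at read 13.0 to 40.3 in brown fat and 15.3 to 38.9 in muscle, and Tnni3 100921_at 1.14 to 28.9 in brown fat and 3.36 to 22.4 in muscle, against at least 10260 in heart. The heart list as a whole summed to 566 to 1637 in brown fat, 55339.7 to 77081.8 in heart and 4943 to 20845 in muscle, where most of the signal was Actc1. The Gapdh ratio ran from 0.814 to 1.16 in the 15 arrays.

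Regulators of the slow programme came from a list of 15 genes, of which 13 were on the array with 21 probe sets, and 15 probe sets were tested. In muscle against the 7 other body tissues 11 were higher and 0 lower, with a median of 1.69 beside -0.06 over all, and the 4 largest were probe sets of Mef2c, a transcription factor of muscle, at 3.78 ± 0.22 to 5.61 ± 0.30 (limma adjusted p at most 9.19e-19). In brown fat 3 were higher, 2 of them Esrra, a nuclear receptor of oxidative metabolism, at 2.17 ± 0.17 and 1.40 ± 0.11, and Sox6, a repressor of slow genes in mouse muscle, at 1.29 ± 0.28 (limma adjusted p at most 0.00012). In heart 8 of the 15 were higher, among them Mef2a at 1.97 ± 0.17. Over all probe sets tested, 15% were called higher in muscle, 13.5% in brown fat and 13.5% in heart. None of the 15 had a spread past 4-fold between the strains' muscles, beside 8.55% of all probe sets. None of the 21 had the order of AJ highest and C3H lowest, beside 5.29% of all tested. In lists this short, counts of 0 do not stand apart from these shares.

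Genes that handle calcium with Atp2a2 came from a list of 15 genes, with 11 on the array and 12 probe sets tested. In heart 4 were higher and 0 lower against the 7 other body tissues, namely Ryr2, the cardiac release channel, at 7.81 ± 0.11, Slc8a1, the sodium-calcium exchanger, at 4.88 ± 0.24, Casq2, the calcium store protein of heart and slow fibres, at 4.62 ± 0.26 and Casq1, its fast fibre counterpart, at 2.56 ± 0.37 (limma adjusted p at most 1.13e-07). In muscle 5 were higher and 3 lower, with Atp2a1, the fast fibre pump, at 9.42 ± 0.76 and 8.67 ± 0.64 and Ryr1, the release channel of skeletal muscle, at 8.29 ± 0.47 (limma adjusted p at most 2.23e-14). The list medians were 0.65 in heart, beside -0.08 over all probe sets tested, and 0.49 in muscle, beside -0.06. Of all probe sets, 13.5% were called higher in heart, and 15% higher and 14.6% lower in muscle.

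Across all 34 tissues each gene had its own order. Atp2a2 was highest in heart, with a geometric mean of 7774, and next in cerebellum at 1410 and in motor cortex at 1177, and the SDs of these neighbours did not overlap for heart and cerebellum or for cerebellum and motor cortex. It was lowest in thymus, spleen and testes, at 43.7, 41.5 and 31.5, which overlapped. Tnnc1 was highest in heart at 8870, then in muscle at 267, brown fat at 126 and motor cortex at 123, where all neighbours after heart overlapped until motor cortex and cortex, at 123 and 81.3. Myh7 98616_f_at followed heart, at 3738, with muscle at 526, amygdala at 238, entorhinal cortex at 207 and brown fat at 163, of which only heart stood apart from its neighbour. Tnni1 was highest in muscle at 278 and brown fat at 265, and next in pons at 105, with all these overlapping. Tnnt1 161361_s_at was highest in muscle at 604, then in midbrain-thalamus at 394, heart at 326, brown fat at 278 and BNST (the stria terminalis bed nucleus) at 229, and these overlapped.

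**Figure D4:**
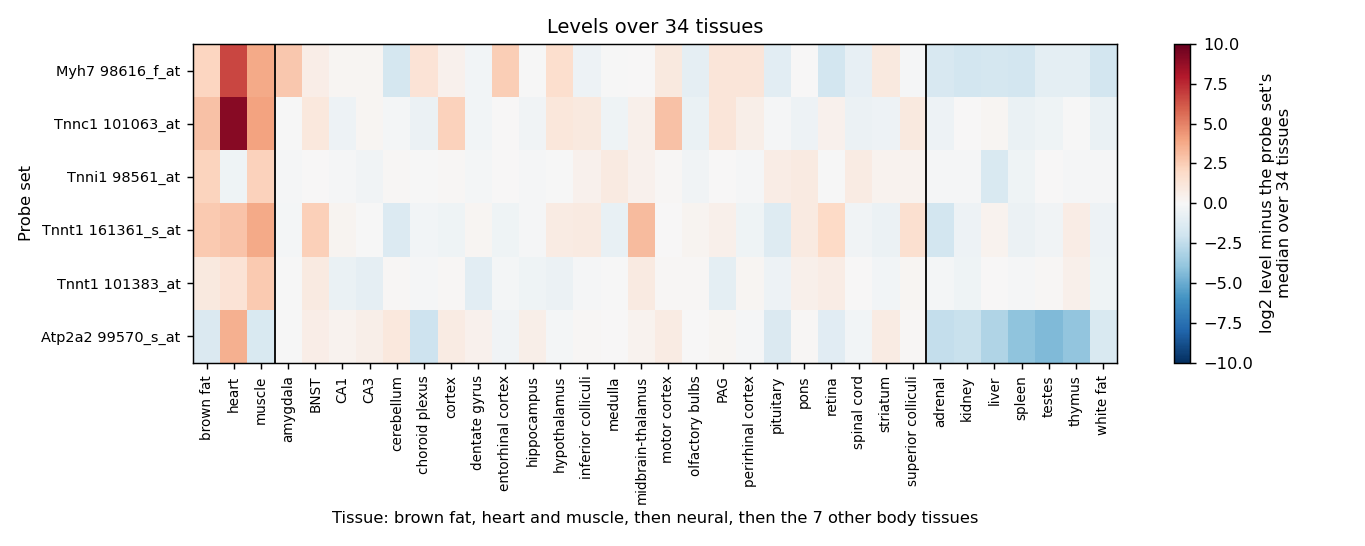
Mean log2 level of the 6 tested probe sets in 34 tissues, minus the median of that probe set over the tissues (colour), so that rows are comparable only in shape; black lines separate brown fat, heart and muscle, the 24 neural tissues and the 7 other body tissues. Atp2a2 lies below its median in the 7 other body tissues, and Tnnt1 161361_s_at is raised in midbrain-thalamus.

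Neural tissue as a whole was compared with the 7 other body tissues on tissue means, without a strain term, although the strains differed between tissues. Atp2a2 was higher by 3.13 ± 0.34 and Myh7 by 1.83 ± 0.43 (limma adjusted p = 4.18e-09 and 0.000722), beside 14.6% of all probe sets. Atp2a2 ran from 126 to 1484 over the 98 neural arrays with a median of 741, against 18.0 to 394 with a median of 95.0 over the 35 arrays of the 7 other body tissues. Myh7 ran from -12.2 to 333 in neural arrays, with a median of 43.8, against -18.7 to 60.1, with a median of 4.45. With the floor at the 40th percentile the Myh7 difference was 0.73, short of the threshold. Tnni1 at 0.50 ± 0.18, Tnnc1 at 0.62 ± 0.36 and Tnnt1 at 0.67 ± 0.43 and -0.01 ± 0.22 did not pass, while with a floor at the 10th percentile Tnnc1 did (1.19, limma adjusted p = 0.026). Of the 12 tested calcium handling probe sets 3 were higher and 3 lower, with a median of 0.15 beside 0.00 over all. Ryr2 was higher in neural tissue by 4.19 ± 0.47 and Atp2b2, a pump of the plasma membrane, by 3.85 ± 0.43, while Itpr2 101442_f_at, an intracellular release channel, was lower by -1.87 ± 0.30 (limma adjusted p at most 4.9e-06).

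Each neural tissue was then set against the average of the other 23. Of the 6 tested probe sets, 5 were called in at least 1 tissue. Each of the 5 was called higher in some tissue, and all but Tnnt1 101383_at lower in some tissue. Of all probe sets tested, 48.7% were called higher and 37.7% lower in at least 1 tissue. Counted over tissues, the members had 13 higher and 12 lower calls. Tnnc1 read 148.6 and 111 in B6 and 105 and 134 in DBA motor cortex, and 71.8 and 68.1 in 129 and 96.8 and 92.4 in B6 cortex. It was higher in motor cortex by 2.85 ± 0.22 and in cortex by 2.06 ± 0.20 (limma adjusted p = 7.29e-19 and 5.71e-14). Tnnc1 passed the filter only through motor cortex and cortex, so its higher calls there were in part set by the filter. Elsewhere in the nervous system its arrays reached no more than 53.5. It was called lower in olfactory bulbs, where all 4 arrays lay below the floor, a call lost under 3 alternatives. Tnnt1 161361_s_at was higher in midbrain-thalamus by 3.02 ± 0.25, in BNST by 2.20 ± 0.25, in retina by 1.79 ± 0.26 and in superior colliculi by 1.44 ± 0.25, and lower in cerebellum, pituitary and medulla. The second Tnnt1 probe set passed the filter only through BNST, midbrain-thalamus and retina, so a higher call there was in part set by the filter. It was called higher in BNST at 1.06 ± 0.24 and in midbrain-thalamus at 1.01 ± 0.24, the latter call lost in 20 of 106 alternatives. With a floor at the 40th percentile both calls of this probe set and the lower calls of Tnnt1 161361_s_at were lost.

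Myh7 98616_f_at was higher in amygdala by 2.52 ± 0.27, entorhinal cortex by 2.26 ± 0.29, hypothalamus by 1.49 ± 0.27 and choroid plexus by 1.15 ± 0.27 (limma adjusted p at most 8.9e-05). It read 212 and 195 in 129 and 266 and 295 in B6 amygdala. It was called lower in retina, cerebellum, pituitary, olfactory bulbs and spinal cord, and no size is given for retina and cerebellum, where 4 of 4 and 3 of 4 arrays lay below the floor. Atp2a2 was higher in cerebellum by 1.06 ± 0.10 and lower in choroid plexus by -2.26 ± 0.10, pituitary by -1.60 ± 0.10 and retina by -1.20 ± 0.10 (limma adjusted p at most 9.89e-16). With a floor at the 40th percentile the 5 lower calls of Myh7 and the higher call in choroid plexus were lost. Tnni1 passed in no neural tissue.

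The strains 129 and B6 were compared over 80 arrays of 20 neural tissues, with tissue as a term, and shared title numbers were not in the fit. Tnni1 was lower in 129 by -1.06 ± 0.10 (limma adjusted p = 8.03e-15), where 1.74% of all probe sets were called lower. With arrays that share a title number as a block the difference was -1.06 (limma adjusted p = 6.57e-14). It was the only member called. Atp2a2 differed by 0.11 ± 0.04 (limma adjusted p = 0.0362), short of 1.5-fold, and the others had adjusted p between 0.192 and 0.794. In pons Tnni1 read 59.5 and 53.5 in 129, against 203 and 191 in B6. In medulla it read 59.2 and 55.8 in 129, against 196.6 and 184 in B6. In spinal cord it read 53.6 and 55.7 in 129, against 188 and 172 in B6. The groups did not overlap in any of these.

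In 18 of the 20 tissues every 129 array lay below every B6 array for Tnni1. Among the other member probe sets this held in 3 tissues for Atp2a2 and up to 8 for Myh7 98616_f_at. The reverse, every 129 array above every B6 array, held in 8 tissues for Atp2a2, 6 for Tnnc1 and 5 for Myh7 98616_f_at. For Tnni1 it held in 0. Groups that did not overlap were thus common among the other members too. The share over all probe sets was not computed, and most tissues had only 2 arrays per strain. For Tnni1 the geometric mean of B6 was over 2-fold that of 129 in 10 tissues. The largest was midbrain-thalamus, with 57.5 and 22.8 in 129, against 163 and 167 in B6, or 4.55-fold. In hypothalamus the values were 49.3 and 59.8 in 129, against 61.2 and 56.5 in B6, and in pituitary 106 and 86.7 in 129, against 87.9 and 97.4 in B6. These last overlapped. The strain difference of Tnni1 varied over the 19 neural tissues that had 2 or more 129 and B6 arrays (limma F test, adjusted p = 2.8e-05), as did that of Myh7 (adjusted p = 0.000201) and Tnnc1 (adjusted p = 0.00535), beside 20.5% of all probe sets. With a floor at the 10th percentile Tnnc1 missed the threshold (limma adjusted p = 0.153).

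In the 7 other body tissues Tnni1 showed 0.13 for 129 against B6, where neural tissue showed -1.06, and the difference of the differences was -1.20 ± 0.25 (limma adjusted p = 0.000614, 80 neural and 14 body arrays), beside 11.1% of all probe sets. Both tests of differences were chosen after the data had been seen. In muscle the order was the other way round, with 588 in 129 against 211 in B6, and in brown fat 129 was again lower, at 135 against 336, but these are single arrays.

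**Figure D5:**
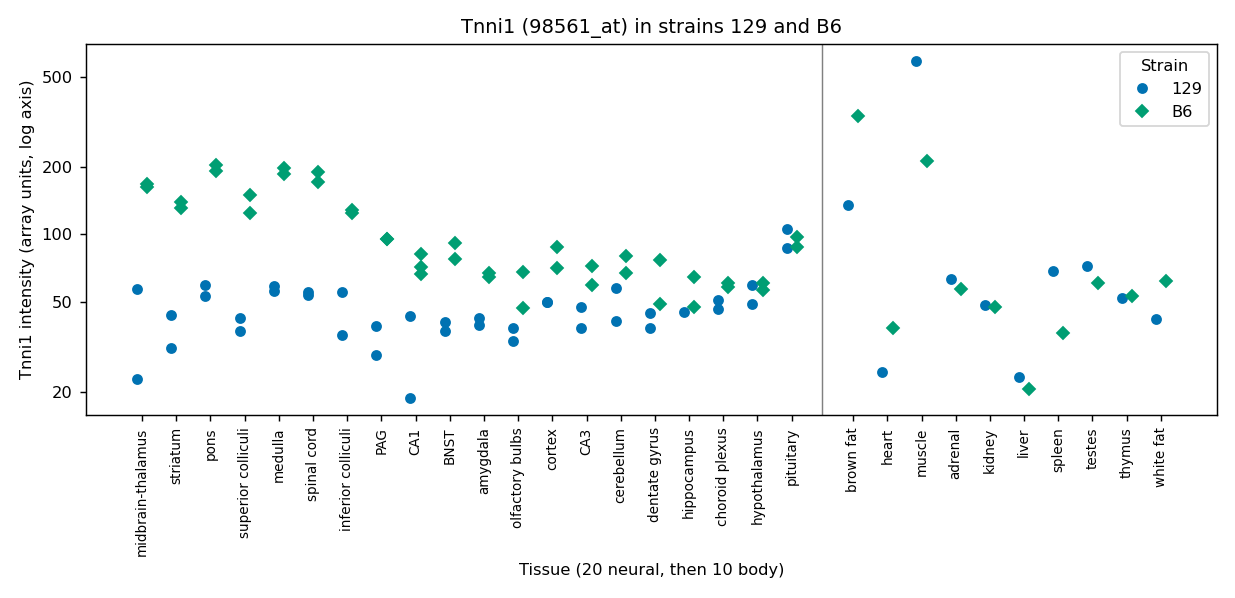
Tnni1 intensity (array units, log axis) of each 129 array (circles) and B6 array (diamonds) in 20 neural tissues, ordered by the ratio of the B6 to the 129 geometric mean, and in 10 body tissues with 1 array per strain. B6 exceeds 129 by 4.55-fold in midbrain-thalamus at the left, and the strains overlap in hypothalamus and pituitary.

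For each gene's brighter probe set, likeness was measured as Pearson's r of the log2 level over the 34 tissue means, heart, muscle and brown fat among them, with 8810 probe sets of a single symbol. Tnnc1 was most like Myl2 at 0.88, Myl3 at 0.88 and Cox6a2 at 0.85. Atp2a2 was most like Ryr2 at 0.90, Prkar1a at 0.85 and Slc4a3 at 0.85. Myh7 was most like Cox6a2 at 0.77, Tnnc1 at 0.76 and Ube2b at 0.75. Tnni1 was most like Atp2a1 at 0.74, Pvalb at 0.72 and Actn3 at 0.71, all from the fast fibre list. Tnnt1 was most like Pstk at 0.74, Cox6a2 at 0.66 and Ldb3 at 0.65. Among the 5 genes themselves r ran from 0.76 for Myh7 and Tnnc1 down to 0.05 for Tnni1 and Atp2a2, and it was 0.73 for the pair of Tnnt1 probe sets.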

How the data were processed

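Biotin-labelled RNA of 150 samples was hybridised to 1 array each. The intensity values were analysed as deposited: linear, on a common level over the arrays, with 5.97% below 0. No label or file header used here names the software or background correction behind them. Arrays labelled DBA perirhinal cortex and 129 hippocampus held identical values, so both were left out and 148 remained. Gene symbols came from the platform annotation in GEO (10833 probe sets with 1 symbol, 396 with several, 1193 with none). Groups came from the tissue and strain labels, and replicate numbers from accession order.

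Values were floored, log2-transformed without rescaling and fitted with limma 3.58.1 in R 4.3.3 (lmFit, eBayes with a trend, Benjamini-Hochberg adjustment over all probe sets tested). Strain or tissue was a covariate, except in neural against body tissues, which had no covariate. The code was tested on simulated data. Strain differences were called at an adjusted p of 0.05 and 1.5-fold, and interactions and F tests by adjusted p. P-values measure the spread between the arrays of a fit, taken as the same in all its tissues, and the animals are not stated. In neural against body tissues they measure the spread between tissue means. Alternatives varied the floor, filter, normalization, probe set choice, prior and arrays. Members and lists were chosen with earlier results of these data known. In each list, up to 4 called probe sets with the largest differences were named; the Tpm3 and Myh4 probe sets and the defining markers were named after their values were seen.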

Additional observations from a re-analysis of the deposited data

Results flagged for a closer look

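Of 153 groups of arrays examined, 7 held an array far from the others of its tissue, and chance alone marks about 1 in 20. Tnni1 read 83.38 in the C3H kidney, where the other strains lay between 43.2 and 51.9, and 42.14 in the AJ thymus, where the others lay between 52.4 and 56.3. Tnnt1 101383_at read 413.35 in the AJ muscle, above 146 to 173 in the others, and 44.69 in a B6 spinal cord, above 27.1 to 29.4. Atp2a2 read 276.42 in a 129 choroid plexus, above 126 to 132, 9160.67 in the 129 heart, above 7236 to 7665, and 489.52 in a 129 hypothalamus, below 590.42 to 596.

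Strain differences that varied between tissues were marked by a limma test of the variation itself. For Tnni1, 129 minus B6 differed between neural tissue and the 7 other body tissues by -1.19742 (limma adjusted p = 0.000614). It also varied among the neural tissues for Tnni1 (limma adjusted p = 2.8e-05), Myh7 (limma adjusted p = 0.000201) and Tnnc1 (limma adjusted p = 0.00535).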

How the results depend on the processing

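Of 6383 single values recomputed under an alternative, 6313 kept their side of the threshold, 63 lost the call, 7 gained it and 0 reversed. A change of sign counted as a reversal only where the value was called, so values that were not called may have changed sign. Values that an alternative left untested, and uncalled values of single neural tissues, were not counted. In brown fat against muscle, 2 members were called, but 1 with the floor at the 10th or 40th percentile, quantile normalization, no filter, 1 probe set per gene, no trend, or only the arrays of the tissues compared, and 1 to 4 when single arrays were left out. With the floor at the 40th percentile, members called were 0, against 1, for 5 strains in the 7 other body tissues, 1, against 2, for neural tissue against those 7, and 13, against 25, over the neural tissues, and probe sets whose strain difference varied by class numbered 1657, against 1062. With the filter at the 75th percentile, members called for 5 strains in the 7 other body tissues were 0, probe sets called over the neural tissues 3362, against 5382, and for 129 against B6 115, against 197, with 0 members, as Tnni1 did not pass that filter. With 1 probe set per gene, 5 strains in the 7 other body tissues gave 246 probe sets, against 375. For 5 strains in brown fat, heart and muscle, leaving out single arrays gave 34 (without the AJ heart) to 94 (without the C3H brown fat) probe sets, against 54. The cause of these changes was not tested.

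Tnni1 in 129 against B6 stayed between -1.09 and -1.02 over 98 alternatives. Among these, 90 neural arrays of 129 or B6 were left out in turn. The fit used only 80 of them, so leaving out the others could not change the value. The alternatives of the tests of varying strain differences were chosen after seeing the data. With arrays of a strain that share a title number as a replicate block, also chosen after seeing the data, 1 member was called in 129 against B6, and no member's call changed in the tissue and strain comparisons run this way; arrays whose numbers overlap only in part were taken as separate, and neural against body tissues, fitted on tissue means, and the tests of a strain by tissue difference were not run so. Replicate numbers themselves follow accession order and pair no samples. The number of arrays, 1 per strain and body tissue, limits the precision.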
